A study of Saccharomyces cerevisiae with 12 samples.

Results

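The proteasome genes of budding yeast and RPN4, the gene of the transcription factor that activates them, were followed across a mutant strain and a drug. The set holds 33 of the 5449 genes tested: 14 genes of the core particle, 18 of the regulatory particle and RPN4. The genes were taken by symbol through the platform annotation, and each of the 33 was read by exactly 1 probe set. RNA from Saccharomyces cerevisiae was hybridised to 12 Affymetrix arrays, 3 in each of 4 groups. The groups were wild type BY4741 and a pat1 mutant in the same background, each grown for 2 h in the absence or presence of 30 µg/ml Congo Red. BY4741 is a haploid MATa laboratory strain with deletions in HIS3, LEU2, MET17 and URA3, which all 4 groups share. The labels call the second strain a pat1 mutant and do not describe its allele. Each of the 3 biological samples of a strain gave both an untreated and a treated array.

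The proteasome degrades proteins that carry ubiquitin chains. Its barrel-shaped core particle holds the proteolytic sites inside stacked rings of alpha and beta subunits, and the regulatory particle, made of a base and a lid, binds, unfolds and feeds substrates into it. Rpn4 activates most of the subunit genes through a shared promoter element and is itself a short-lived substrate of the proteasome, so that impaired proteolysis raises Rpn4 and, with it, the synthesis of subunits. Pat1 is a protein of the mRNA decay machinery that promotes removal of the cap from transcripts with a shortened poly(A) tail. Congo Red, a cell wall stressor, attaches to chitin and glucan fibres.

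No member passed an adjusted p under 0.05 in the main fit of limma, the linear model for arrays used throughout, in any of the 6 comparisons made. RPN4 stayed within 0.14 of 0 on the log2 scale in each of them. Under other settings of limma single members passed. PRE8 did for Congo Red in wild type with the biological sample as a random block (adjusted p = 0.0422). PRE7 did in untreated pat1 with centred arrays or cyclic loess (0.0426 and 0.0408). PUP3 did in pat1 without and with drug under the trend and robust settings of eBayes (0.0485 and 0.0497). In wild type, 30 of the 33 genes lay above 0 with Congo Red, with a median of 0.10, where 2338 of all 5449 genes lay above 0. The 95% interval of every member stayed inside a 1.5-fold change in either direction. Without drug, all 14 core particle genes lay above 0 in pat1 against wild type, while 13 of the 18 regulatory particle genes lay below 0. Of all 5449 genes 2607 lay above 0. The core count fell to 8 of 14, and with Congo Red to 5 of 14, when the 2 samples high in general stress genes were left out. Neither the lean with Congo Red in wild type nor the split was tested. Among partners of the proteasome, ECM29, which codes for a protein that binds and stabilises assembled proteasomes, was lower in untreated pat1 by 0.92. UBR1, the ubiquitin ligase of the N-degron pathway, was lower by 0.75, and both passed. Both calls were lost when only the 2 groups compared were fitted, and that of ECM29 also without the 2 samples high in general stress genes. The lists that hold both genes were chosen with earlier results of these data known.

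The values were log2 signals from 2.33 to 14.32, with array medians of 9.53 to 9.70 over the genes tested, and arrays of 1 group correlated at 0.975 to 0.995. PAT1 gave 10.50 to 10.93 in wild type and 2.95 to 3.94 in pat1. LEU2 and MET17 stayed between 2.95 and 4.20 on every array, while HIS3, which is only partly deleted in this strain, gave 10.53 to 11.18. The MATa genes MFA1, MFA2, STE2, STE6 and BAR1 lay between 10.96 and 13.66, and of the MATalpha genes STE3 lay between 5.20 and 7.33 and MF(ALPHA)1 and MF(ALPHA)2 between 3.74 and 5.50. URA3 went against the deletion on 2 arrays, at 7.71 on treated wild type sample 2 and 6.76 on untreated pat1 sample 1, and reached at most 3.27 on the other 10. Wild type sample 2 and pat1 sample 3 also stood apart in 18 general stress genes, whose mean was 0.74 and 0.51 above that of the group on the arrays of wild type sample 2 without and with drug, and 0.65 and 0.58 above it on those of pat1 sample 3. The main results below are also given without these arrays, and their part in any difference was not tested. The design text speaks of biological samples without saying what separates them, and precision is limited by 3 arrays a group. P-values of the fit on group means measure the spread between arrays of a group. That fit takes both arrays of a sample as independent, although they correlated at 0.63. Where the treated and untreated arrays of each sample were compared, p-values measure the spread of that response between samples.

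Members varied little between arrays. Their residual standard deviation within groups had a median of 0.15 on the log2 scale against 0.19 over all genes tested, and 29 of the 33 lay below the median of all genes. The members are also bright, with signals of 10.43 to 12.86 against array medians of 9.53 to 9.70. Genes of like brightness were not compared. The residual standard deviation ran from 0.06 for RPN5, a lid subunit, to 0.20 for RPT3, an ATPase of the base. Over all 12 arrays the gap between the lowest and the highest signal ran from 0.31 for RPN5 to 0.78 for RPT2. Within the wild type groups the members moved together by sample: sample 2 was the lowest of its group for 24 of the 33 genes without drug and for 29 with Congo Red. In pat1, sample 1 was the lowest for 18 genes without drug and for 17 with it, and sample 3 for 14 and 12. On the arrays of pat1 sample 3 the median deviation from the group mean was 0.04 and 0.09 for core genes. For regulatory genes it was -0.05 and -0.05. Such counts over all genes were not made. Wild type sample 2 is the sample with high general stress genes and, on its treated array, URA3 signal, and untreated pat1 sample 1 is the other array with URA3 signal. These patterns stand in the heat map of all members.

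**Figure D1:**
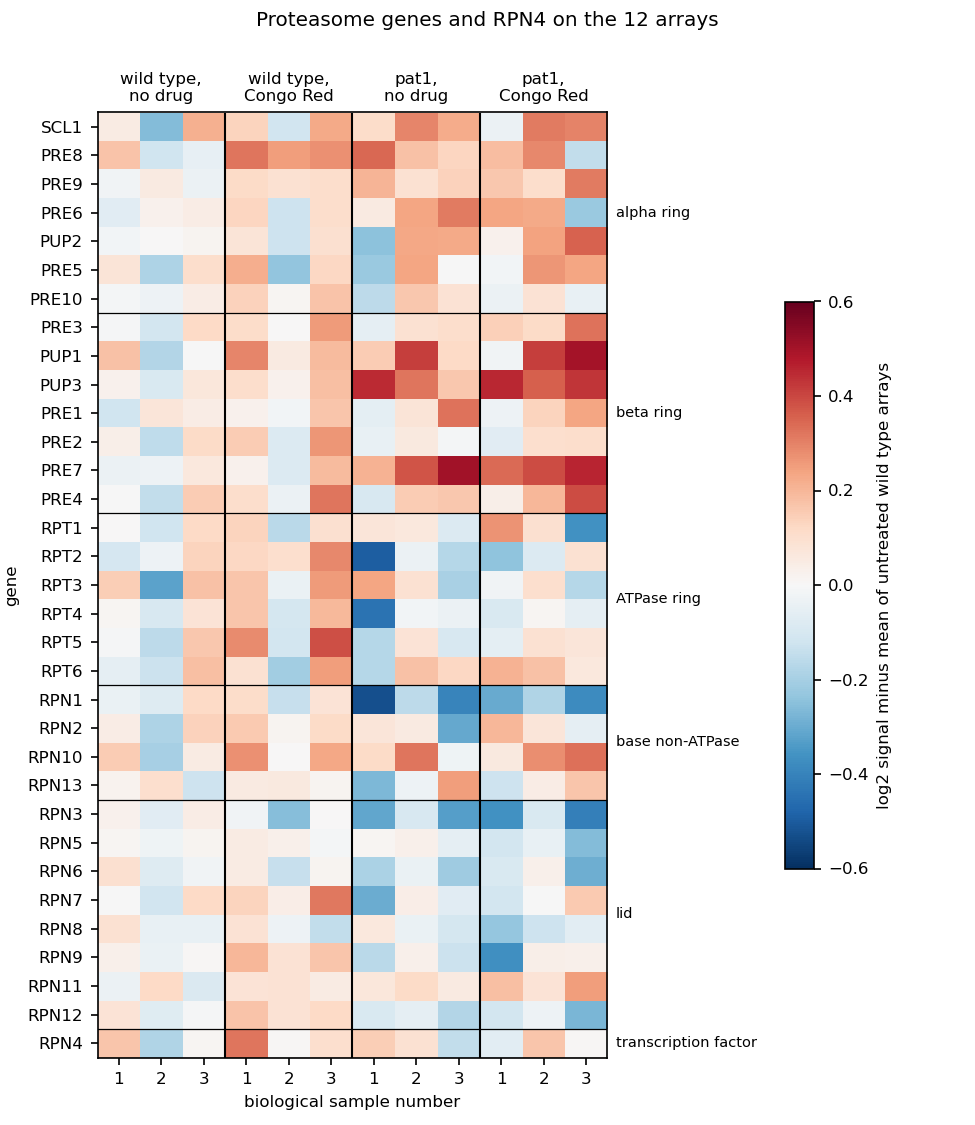
Log2 signal of the 33 genes on each of the 12 arrays, as the difference from the mean of the 3 untreated wild type arrays of the same gene (colour, -0.6 to 0.6). Rows are genes by subcomplex and columns are biological samples within the 4 groups. Wild type sample 2 is paler or bluer than its group for most genes, and PUP3 and PRE7 are red in all 6 pat1 arrays.

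RPN4 was measured first. Its signal was 10.78, 10.43 and 10.63 on untreated wild type samples 1, 2 and 3, and 10.94, 10.62 and 10.71 on the same samples with Congo Red. In pat1 it was 10.76, 10.71 and 10.47 without drug and 10.55, 10.78 and 10.62 with it. The 4 groups overlap fully, although each of the 3 wild type samples was higher with the drug than without it. The change with Congo Red was 0.14 ± 0.13 (SE) in wild type (limma adjusted p = 0.777, 95% interval -0.14 to 0.43) and 0.01 ± 0.13 in pat1 (interval -0.28 to 0.29). The pat1 mutant differed from wild type by 0.03 without drug (interval -0.26 to 0.32) and by -0.11 with Congo Red (interval -0.39 to 0.18). The strains' responses to Congo Red differed by -0.14 (interval -0.54 to 0.27). An array reads the transcript only, so the amount of Rpn4 protein, which the cell sets largely through degradation, was not measured. RNA came from whole cultures, so a change in a share of the cells and a change in each cell cannot be told apart.

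The first question was whether Congo Red changed proteasome genes in wild type. Of all genes tested, 2.68% passed an adjusted p under 0.05 and 12.7% an unadjusted p under 0.05. Of the 33 members, 0 passed the former and 1, PRE8, the latter. With the replicate block, which compares the treated with the untreated array of each biological sample, 14.1% of all genes passed but again 0 members. With the biological sample as a random block 1 member passed, again PRE8, against 15.2% of all genes. Each of these shares of the members lay below that of all genes.

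The members nevertheless leaned one way, which is given without a test. All 33 were read on the same 3 pairs of arrays, so they are not separate readings of the drug. The median change was 0.10 over the members and -0.03 over all genes tested. Of the 33, 30 lay above 0, made up of 14 of 14 core genes, 15 of 18 regulatory genes and RPN4. Of all 5449 genes 2338 did. The treated array was above the untreated one in all 3 biological samples for 17 members, where 24.7% of all genes did this, and below in all 3 for 1 member, RPN3, where 32.8% did. The groups did not overlap for 4 members, all higher with the drug (PRE8, PRE9, RPN9 and RPN12), against 20.7% of all genes in either direction. The median response of the members was 0.12 in sample 1, 0.05 in sample 2 and 0.12 in sample 3, against 0.01, -0.05 and -0.04 over all genes. Without both arrays with URA3 signal the members' median was 0.16 with 31 above 0, and without wild type sample 2 and pat1 sample 3 it was 0.12 with 30 above 0, and 0 members passed in either case.

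PRE8, the alpha 2 subunit of the core, had the largest value. Its signal was 11.64, 11.35 and 11.42 on the untreated wild type arrays and 11.79, 11.73 and 11.75 on the treated ones. Every treated array thus lay above every untreated one. The change was 0.28 ± 0.13 (limma adjusted p = 0.383), with an adjusted p of 0.0741 under the replicate block and 0.0422 with the sample as a random block. The change was 0.30 without both arrays with URA3 signal and 0.24 with wild type sample 2 and pat1 sample 3 left out, with adjusted p of 0.519 and 0.531. In pat1 the untreated arrays gave 11.82, 11.65 and 11.60 and the treated ones 11.66, 11.76 and 11.33, a change of -0.11 ± 0.13. The strains' responses differed by -0.39 ± 0.18 (limma adjusted p = 1.00, 95% interval -0.78 to 0.005), the largest such difference among the members.

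After PRE8 came RPT5 of the ATPase ring at 0.19 ± 0.14 and PUP1, the beta 2 subunit with the trypsin-like site, at 0.18 ± 0.15. The other beta subunits with a proteolytic site, PRE3 (caspase-like) and PRE2 (chymotrypsin-like), stood at 0.12 ± 0.11 and 0.11 ± 0.11. The ubiquitin receptor RPN10 stood at 0.17 ± 0.13 and the deubiquitinase of the lid, RPN11, at 0.07 ± 0.09. The lowest were lid subunits, RPN3 at -0.09 ± 0.12, RPN8 at -0.03 ± 0.10 and RPN6 at -0.02 ± 0.11. By subcomplex the median change was 0.08 in the alpha ring, 0.11 in the beta ring, 0.11 in the ATPase ring, 0.07 among the other base subunits and 0.05 in the lid. None of these subunits passed the test.

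The same question in pat1 gave smaller values. Of all genes tested 0.661% passed an adjusted p under 0.05, 5.6% an unadjusted one and 2.31% the adjusted one with the replicate block, and of the members 0 did in each case. The median was 0.05 over the members and 0.04 over all genes, so the members did not stand off from the rest of the array. Of the 33 members 21 lay above 0, against 3341 of all 5449 genes. All 3 samples were higher for 7 members (23.1% of all genes) and lower for 1, RPN5 (11% of all genes). The groups did not overlap for 1 member (8.15% of all genes), PRE3, whose signal was 11.98, 12.12 and 12.14 without and 12.17, 12.15 and 12.36 with Congo Red. The highest changes were those of PRE5, the alpha 6 subunit, at 0.16 ± 0.16, RPT2 at 0.16 ± 0.14 and PRE3 at 0.15 ± 0.11, and the lowest those of RPN5 at -0.13 ± 0.09, PRE6, the alpha 4 subunit, at -0.12 ± 0.14 and RPN8 at -0.11 ± 0.10. Without both arrays with URA3 signal the members' median was 0.01 with 17 above 0, and with arrays centred on their medians it was -0.01, so that it took no direction that held under each scaling. With wild type sample 2 and pat1 sample 3 left out it was 0.04 with 22 above 0. The random block called 3.08% of all genes and 0 members.

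The intervals show what the 3 arrays a group can bound. In wild type the 95% interval of the response lay within 1.5-fold either way for 33 of 33 members, as it did for 68.5% of all genes, and in pat1 for 33 of 33, against 75.2%. The bounds of the members ran from -0.35 to 0.56 in wild type and from -0.42 to 0.50 in pat1, where 1.5-fold is 0.58. Each interval holds for 1 gene and is not adjusted for the number of genes, and the shares of all genes include dim ones.

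**Figure D2:**
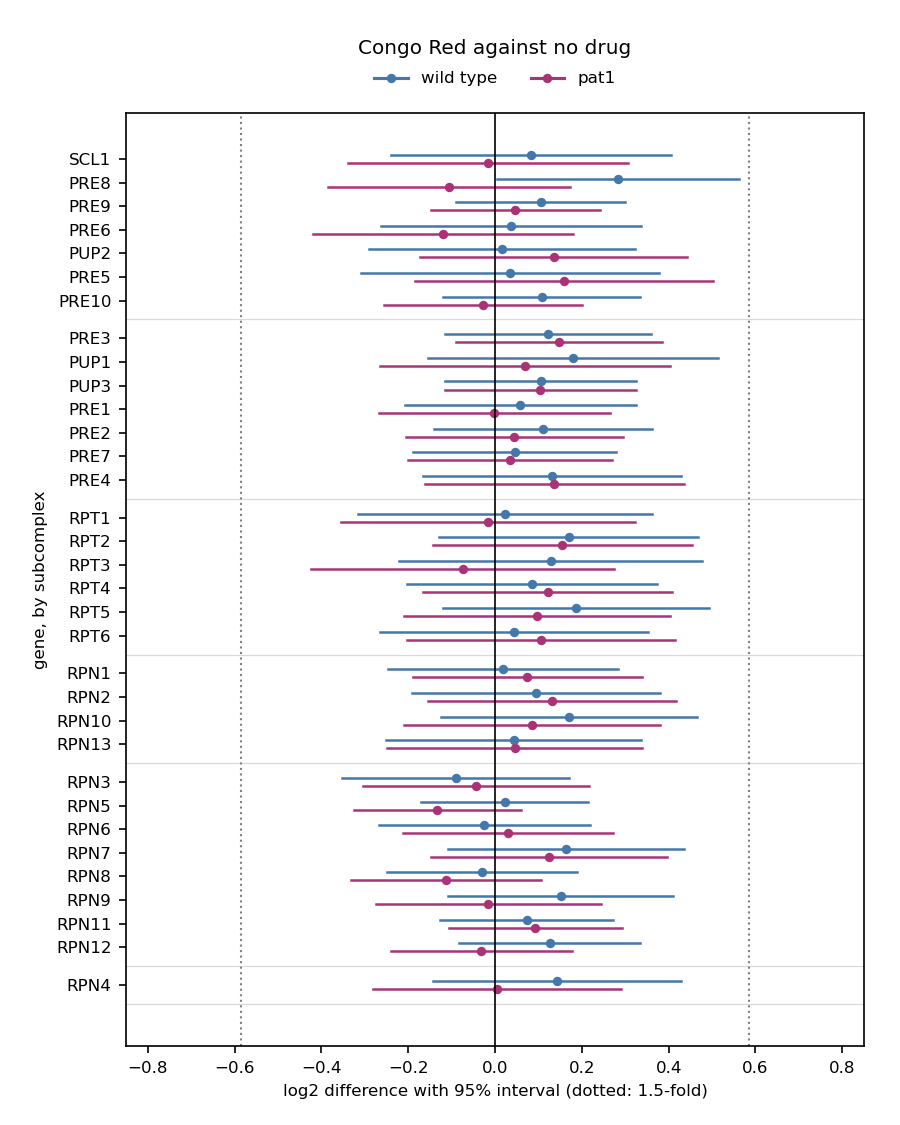
Log2 difference between Congo Red and no drug for each of the 33 genes, in wild type and in pat1 (points, limma estimate on 3 against 3 arrays; lines, 95% interval; dotted lines, 1.5-fold). In wild type 30 of the 33 points lie above 0 and in pat1 21 do, where 2338 and 3341 of all 5449 genes lie above 0. No interval crosses a dotted line.

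Whether the strains responded differently was tested as an interaction. Of all genes tested, 0% passed an adjusted p under 0.05 in limma, 2.39% an unadjusted p under 0.05 and 0.0551% the adjusted one with the replicate block. No member passed any of these or the fit with a random block, which called 0.202% of all genes. After PRE8, the lowest values were RPT3 at -0.20 ± 0.23 and RPN9 at -0.17 ± 0.17, and the highest were PRE5 at 0.12 ± 0.22, PUP2, the alpha 5 subunit, at 0.12 ± 0.20 and RPT6 at 0.06 ± 0.20. The median was -0.04 over the members and 0.06 over all genes. Of the members 12 lay above 0, against 3443 of all 5449 genes. The interval lay within 1.5-fold for 30 of the 33 members and for 44.2% of all genes, and the exceptions were PRE8, RPT3 and PRE5. The median moved to -0.16 without both arrays with URA3 signal, where 3 of the 33 members lay above 0 in place of 12, still with 0 passing, and to -0.09 with 10 above 0 when wild type sample 2 and pat1 sample 3 were left out. It lay just above 0, at 0.01 or less, without untreated wild type array 2, treated wild type array 3 or treated pat1 array 1.

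The second question was whether pat1 differed from wild type. Without drug 6.44% of all genes tested passed an adjusted p under 0.05 and 24.3% an unadjusted one. Of the members 0 and 3 did. With Congo Red the shares of all genes were 6.44% and 23.7%, and 0 and 4 members passed. The random block called 0 members in both, against 5.27% and 5.32% of all genes. With the arrays of each biological sample averaged, 2.42% of all genes passed an adjusted p and 23.7% an unadjusted p, and 0 and 3 members did, while the random block called 7.34% of all genes and 0 members. The share of members at an unadjusted p under 0.05 was thus below that of all genes in each of these comparisons. Without both arrays with URA3 signal 3, 6 and 2 members lay under that unadjusted p in these 3 comparisons, and with wild type sample 2 and pat1 sample 3 left out 2, 0 and 1 did, with 0 passing the adjusted one throughout.

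PRE7, the beta 6 subunit of the core, had the largest strain difference. Its signal was 11.64, 11.65 and 11.74 on the untreated wild type arrays and 11.89, 12.06 and 12.18 on the untreated pat1 arrays. With Congo Red it was 11.70, 11.60 and 11.87 in wild type and 12.02, 12.07 and 12.14 in pat1. All 6 pat1 arrays lay above all 6 wild type arrays. The difference was 0.36 ± 0.11 without drug (limma adjusted p = 0.0652), 0.35 ± 0.11 with Congo Red (adjusted p = 0.0740) and 0.36 ± 0.11 over the averaged samples (adjusted p = 0.105). With arrays centred on their medians the difference without drug was 0.37 (adjusted p = 0.0426), and with cyclic loess 0.39 (adjusted p = 0.0408), so PRE7 lay at the edge of the threshold.

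PUP3, the beta 3 subunit, was next. It gave 12.32, 12.20 and 12.36 in untreated wild type and 12.74, 12.62 and 12.46 in untreated pat1. With Congo Red it gave 12.40, 12.32 and 12.48 in wild type and 12.75, 12.66 and 12.73 in pat1. The strains did not overlap in either state, by 0.31 ± 0.10 in both (limma adjusted p = 0.0877 and 0.0917). Only with the trend and robust settings of eBayes did it pass, at an adjusted p of 0.0485 without drug and 0.0497 with it.

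RPN1, the large scaffold subunit of the base that docks ubiquitin-chain receptors, went the other way. Its signal was 12.25, 12.21 and 12.40 in untreated wild type and 11.76, 12.13 and 11.89 in untreated pat1. With Congo Red it was 12.40, 12.14 and 12.37 in wild type and 11.98, 12.10 and 11.91 in pat1. The groups did not overlap in either state, with pat1 lower by 0.36 ± 0.12 without drug (limma adjusted p = 0.0955) and by 0.30 ± 0.12 with it (adjusted p = 0.155). RPN12, a lid subunit, gave 11.33, 11.25 and 11.28 in treated wild type and 11.05, 11.13 and 10.89 in treated pat1. That is a difference of -0.26 ± 0.10 (adjusted p = 0.124), while without drug the difference was -0.11 ± 0.10 and the groups overlapped. None of these 4 passed in the fit of the deposited values with limma's default eBayes. Without both arrays with URA3 signal, the differences of PRE7, PUP3 and RPN1 were 0.44, 0.24 and -0.28 without drug and 0.29, 0.27 and -0.38 with it, and that of RPN12 with the drug was -0.28. With wild type sample 2 and pat1 sample 3 left out they were 0.28, 0.34 and -0.38 without drug and 0.26, 0.26 and -0.34 with it, and that of RPN12 was -0.22. The signs held, and the lowest adjusted p among all members was 0.0710 and 0.142 without drug and 0.101 and 0.246 with it.

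**Figure D3:**
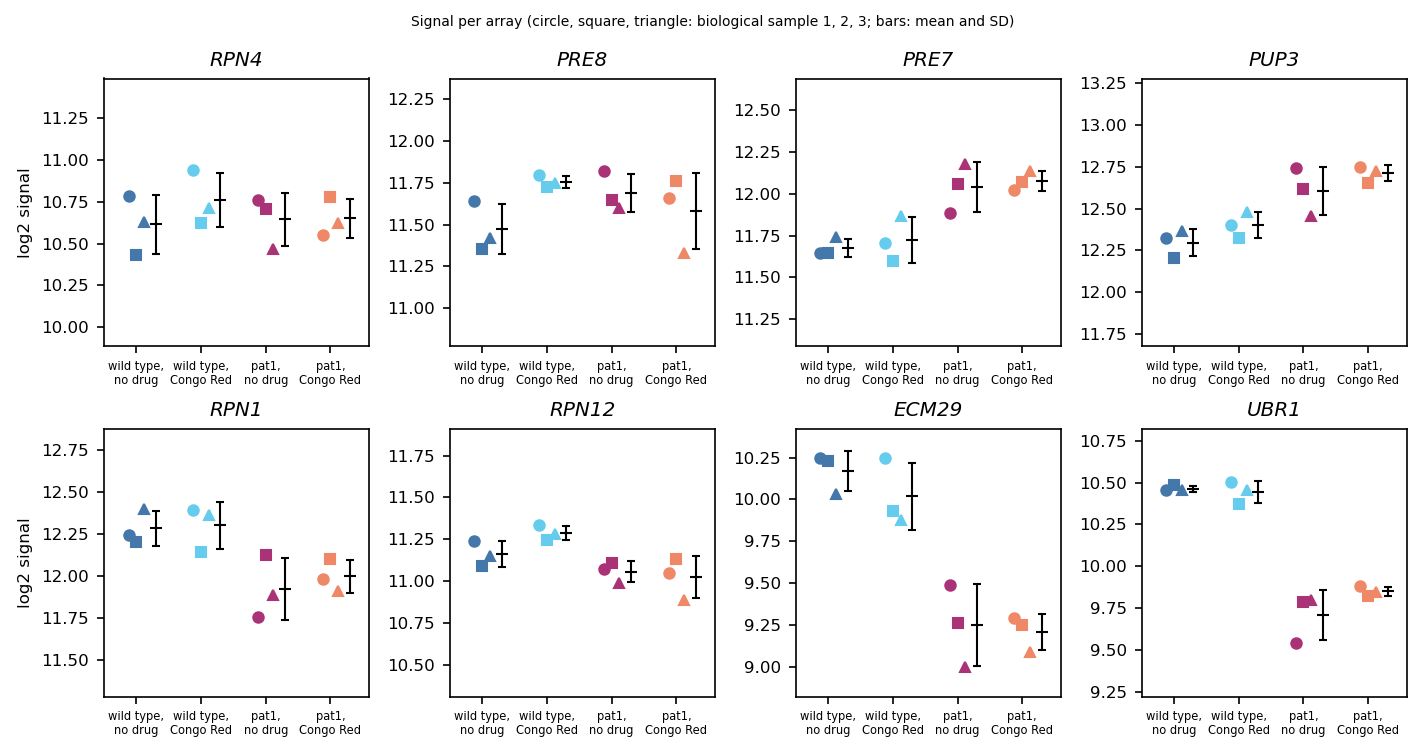
Log2 signal of 8 genes on each array by group (circle, square and triangle, biological samples 1, 2 and 3; bars, mean and SD, n = 3; each panel has its own axis range). PRE7, PUP3, RPN1, ECM29 and UBR1 show no overlap between strains in either drug state, while RPN4 overlaps in all groups.

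In untreated pat1 the groups did not overlap for 6 members, against 26.9% of all genes, with PRE7, PUP3, PRE6 and PRE9 higher and RPN1 and RPN3 lower. With Congo Red they did not overlap for 7, against 29.7% of all genes, with PRE7 and PUP3 higher and RPN1, RPN12, RPN9, RPT2 and RPN5 lower. Both shares of the members are below those of all genes. The next largest differences without drug were PUP1 at 0.23 ± 0.15, RPN3 at -0.24 ± 0.12 and RPT2 at -0.23 ± 0.14. With Congo Red they were PUP2 at 0.19 ± 0.14 and RPN9 at -0.25 ± 0.12. The interval lay within 1.5-fold for 31 members without drug (57.8% of all genes), for 32 with Congo Red (57.3%) and for 31 over the averaged samples (63.6%). The members whose interval crossed it were PRE7 in all 3 and RPN1 without drug and over the averaged samples.

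**Figure D4:**
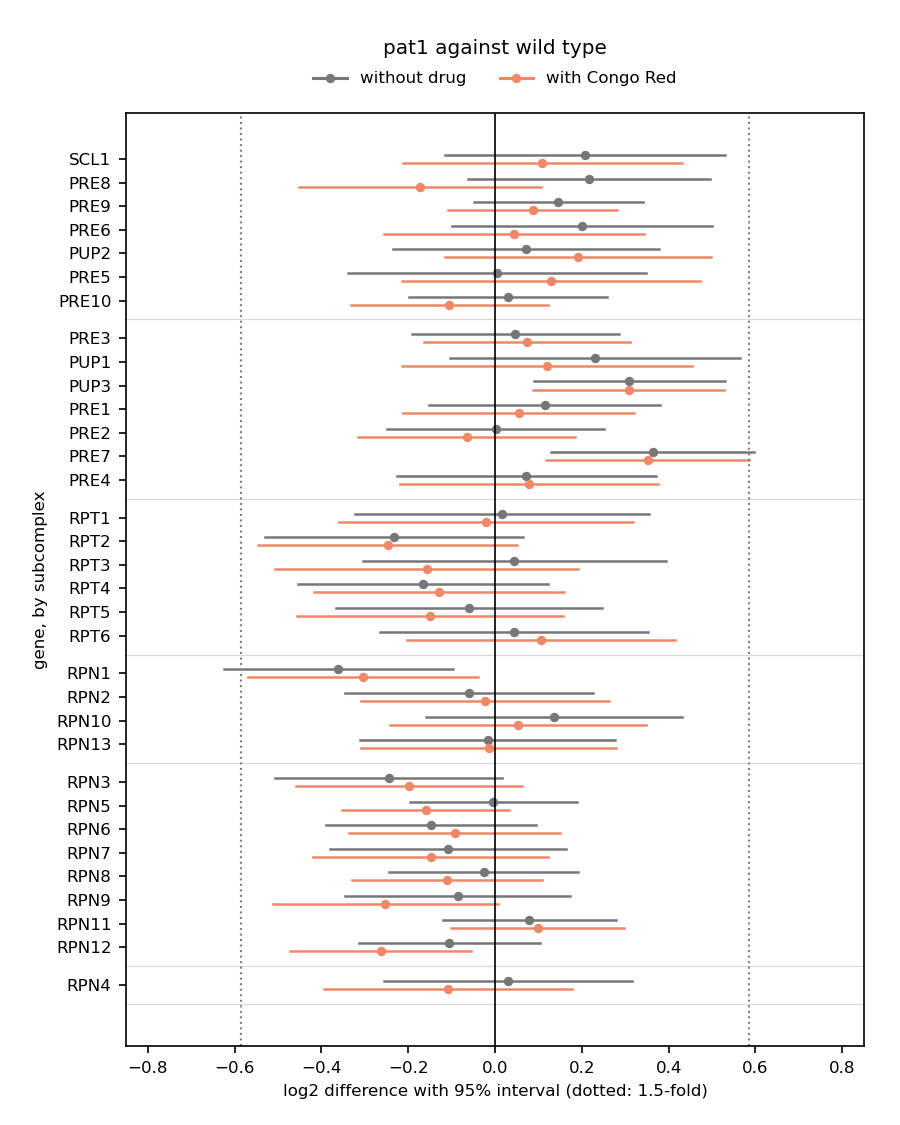
Log2 difference between pat1 and wild type for each of the 33 genes, without drug and with Congo Red (points, limma estimate on 3 against 3 arrays; lines, 95% interval; dotted lines, 1.5-fold). Core genes at the top lie mostly above 0 and lid genes at the bottom mostly below it, with PRE7, PUP3 and RPN1 farthest out.

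The particles leaned to opposite sides of 0 in pat1, a split that was noticed in these values and is given without a test. Without drug the core genes had a median difference of 0.13 and lay above 0 in 14 of 14 cases, with medians of 0.15 in the alpha ring and 0.11 in the beta ring. The regulatory genes had a median of -0.06 and lay below 0 in 13 of 18, which comprised 3 of 6 in the ATPase ring, 3 of 4 other base subunits and 7 of 8 in the lid. The exception in the lid was RPN11 at 0.08 ± 0.09. With Congo Red the core median was 0.08 with 11 of 14 above 0, and the regulatory median was -0.14 with 15 of 18 below 0. Over all genes tested the median was -0.01 without drug and 0.04 with it, and 2607 and 3091 of the 5449 lay above 0. With arrays centred on their medians the core medians were 0.14 and 0.03 and the regulatory medians -0.05 and -0.19. With 1 array left out the core median ranged from 0.09 to 0.18 without drug and from 0.01, without treated wild type array 2, to 0.15 with it, and the regulatory median from -0.13 to -0.04 and from -0.18 to -0.07. The 18 general stress genes all lay above 0 in untreated pat1, with a median of 0.80, and 14 of 18 did with Congo Red, with a median of 0.34, and their part in the split was not tested.

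On single arrays, the median of the core genes minus that of the regulatory genes, each gene taken relative to untreated wild type, lay from -0.02 to -0.01 in untreated wild type, where it is near 0 by construction. It lay at -0.01, -0.01 and 0.07 in treated wild type, at 0.17, 0.17 and 0.25 in untreated pat1 and at 0.13, 0.20 and 0.36 in treated pat1. The highest value in each pat1 group came from sample 3, one of the samples with high general stress genes. With wild type sample 2 and pat1 sample 3 left out, the core median was 0.06 without drug (8 of 14 above 0) and -0.04 with Congo Red (5 of 14 above 0), so the sign of the core genes with Congo Red turned, while the regulatory medians were -0.09 (13 of 18 below 0) and -0.16 (14 of 18 below 0). Without both arrays with URA3 signal the core medians were 0.18 and 0.01 and the regulatory medians -0.04 and -0.18.

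**Figure D5:**
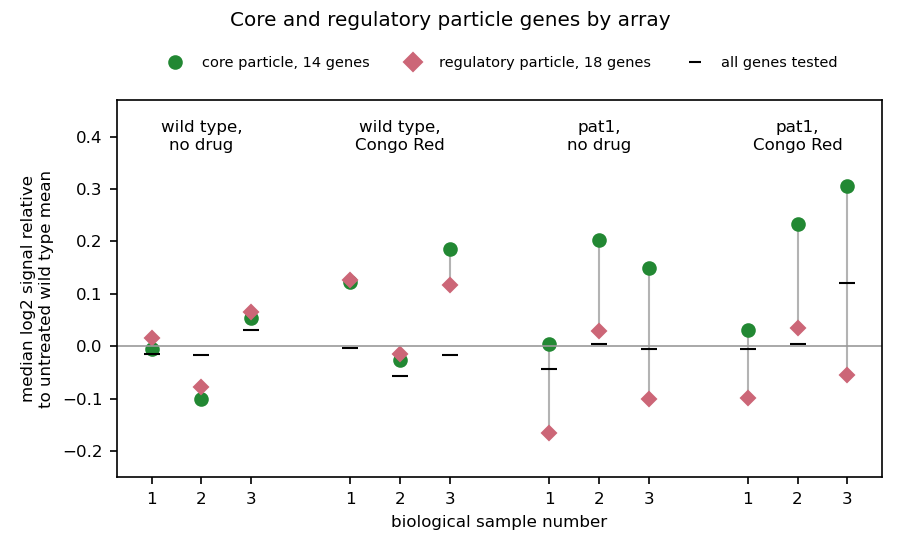
Median log2 signal of the 14 core genes, the 18 regulatory genes and all genes tested on each array, relative to the mean of untreated wild type for each gene. The core and regulatory medians lie within 0.07 of each other in wild type and from 0.13 to 0.36 apart on all 6 arrays of pat1.

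Genes that act with the proteasome were read from a list of 18 assembly chaperones and partners. Of these, 0 passed in limma for Congo Red in either strain, with 2 in wild type and 0 in pat1 at an unadjusted p under 0.05 and 4 and 0 with the random block. Of all genes 12.7% and 5.6% had such an unadjusted p, and 15.2% and 3.08% passed with the random block. There were 2 that passed in pat1 without drug and 1 with Congo Red, all of them lower in pat1, against 6.44% of all genes in either state. The median differences of the list were 0.05 and 0.01 for the drug in wild type and pat1, and 0.21 and 0.08 for pat1 without and with it. SEM1, which codes for a small lid subunit outside the 33 genes and is named here with its values already seen, stood at 0.20 ± 0.27 in untreated pat1.

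ECM29 fell in pat1. Its signal was 10.25, 10.23 and 10.03 in untreated wild type and 9.49, 9.26 and 9.00 in untreated pat1, and 10.25, 9.93 and 9.88 against 9.29, 9.25 and 9.09 with Congo Red. Every pat1 array lay below every wild type array. The difference was -0.92 ± 0.14 without drug (limma adjusted p = 0.00668) and -0.81 ± 0.14 with it (adjusted p = 0.0103). Both calls held when any 1 array was left out. The call without drug was lost when only the 2 groups compared were fitted (adjusted p = 0.0623), and with wild type sample 2 and pat1 sample 3 left out the differences were -0.76 (adjusted p = 0.0523) and -0.79 (adjusted p = 0.0551). Over the averaged samples the difference was -0.86 ± 0.13 (adjusted p = 0.0272), a call lost without wild type sample 1, 2 or 3, without pat1 sample 2 or 3, without both arrays with URA3 signal and without the 2 samples with high general stress genes.

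BLM10, which codes for an activator that caps the core particle in place of the regulatory particle, gave 11.23, 11.17 and 11.38 in untreated wild type and 10.82, 10.76 and 10.53 in untreated pat1. It fell by 0.56 on the log2 scale without drug (SE 0.12, limma adjusted p = 0.0238) and stood at -0.40 ± 0.12 with Congo Red (adjusted p = 0.0716). The call without drug was lost without untreated wild type array 1 or 3, without untreated pat1 array 3, without both arrays with URA3 signal, without the 2 samples with high general stress genes and in the fit of only the 2 groups. The highest adjusted p over the alternatives was 0.0989.

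Of 27 genes for ubiquitin and the delivery of substrates, 0 passed in limma for Congo Red in either strain, with 3 in wild type and 0 in pat1 at an unadjusted p under 0.05 and 3 and 0 with the random block, beside the same shares of all genes. In pat1 without drug 1 rose and 3 fell, and with Congo Red 1 rose and 1 fell, where 6.44% of all genes passed in either state. The median differences between pat1 and wild type were -0.12 without and -0.21 with the drug. In these comparisons 19 and 23 of the 27 lay below 0, against 2842 and 2358 of all 5449 genes.

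UBR1 gave 10.45, 10.48 and 10.45 in untreated wild type and 9.54, 9.79 and 9.80 in untreated pat1. With Congo Red it gave 10.50, 10.37 and 10.46 in wild type and 9.88, 9.82 and 9.85 in pat1. It was lower in pat1 by 0.75 ± 0.10 (limma adjusted p = 0.00217) and by 0.59 ± 0.10 with Congo Red (adjusted p = 0.00626). Both calls held when any 1 array was left out, and the difference with Congo Red passed in each of the 15 alternatives run, while that without drug missed the threshold in 1, the fit of only the 2 groups compared (adjusted p = 0.0535). Averaged over samples it was -0.67 ± 0.09 (adjusted p = 0.0205), lost without wild type sample 1 or 3, without pat1 sample 2 or 3, without both arrays with URA3 signal and without the 2 samples with high general stress genes.

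UBC13, the ubiquitin-conjugating enzyme of chains linked through lysine 63, rose in pat1 by 0.59 ± 0.12 without drug (limma adjusted p = 0.0229) and by 0.52 ± 0.12 with it (adjusted p = 0.0347). Its signal was 10.98 to 11.21 on the 6 wild type arrays and 11.52 to 11.86 on the 6 pat1 arrays. Over the averaged samples the difference was 0.55 ± 0.11 (adjusted p = 0.0473). TOM1, a large ubiquitin ligase, fell by 0.50 without drug (SE 0.10, adjusted p = 0.0201), and UBA1, the enzyme that activates ubiquitin, fell by 0.41 (SE 0.10, adjusted p = 0.0413). These calls were easily lost, although the differences without drug kept their sign. Over the alternatives UBC13 ran from 0.49 to 0.68, TOM1 from -0.53 to -0.44 and UBA1 from -0.49 to -0.33. The 3 calls without drug were each lost without any 1 of the untreated wild type arrays, without untreated pat1 array 1 and without untreated pat1 array 3, as well as without both arrays with URA3 signal, without the 2 samples with high general stress genes and in the fit of only the 2 groups. The call of UBC13 with the drug was lost without any 1 treated wild type array or treated pat1 array 2 or 3 and, as a further 4 losses among 15 alternatives, with the random block, in the fit of only the 2 groups, without both arrays with URA3 signal and without the 2 samples with high general stress genes. Its averaged call was lost without any 1 sample, with cyclic loess and without either of these sets of arrays.

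With the replicate block, 2 of the 18 partners and 4 of the 27 ubiquitin genes passed for Congo Red in wild type, all of them higher, where 14.1% of all genes passed. They were chosen for mention by this result. UBI4, the polyubiquitin gene, gave 10.97, 11.43 and 11.03 without drug and 11.71, 11.83 and 11.95 with it. Its change was 0.69 ± 0.20 (limma adjusted p = 0.112 without and 0.00764 with the replicate block). TMA17, an assembly chaperone of the base, gave 9.54, 10.27 and 9.61 without drug and 10.21, 10.68 and 10.71 with it, a change of 0.73 ± 0.30 (adjusted p = 0.323 and 0.00545). The others were NAS2, another chaperone of the base, at 0.34 ± 0.16 (0.0336 with the block), the conjugating enzyme UBC5 at 0.57 ± 0.22 (0.00684), TMC1 at 0.49 ± 0.16 (0.00424) and the shuttle factor DDI1 at 0.25 ± 0.16 (0.0470). In pat1 UBI4 stood at 0.32 ± 0.20 and TMA17 at 0.16 ± 0.30, and neither passed in the interaction between strain and drug (adjusted p = 1.00).

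The regulators of RPN4 were read last. Of 8 genes, the ubiquitin ligase UBR2 and its partner MUB1, which mark Rpn4 for degradation, and the transcription factors YAP1, PDR1, PDR3, HSF1, MSN2 and MSN4, 0 passed in any comparison in limma. At an unadjusted p under 0.05, 3 did in untreated pat1 and 1 over the averaged samples, and with the replicate block 1 passed for Congo Red in wild type, MSN4. The shares of all genes there were 24.3%, 23.7% and 14.1%. The 3 of 8 genes in untreated pat1 thus lie above the background, and the counts of 1 among 8 below it. Targets of these factors gave a second reading. Of 20 targets of Hsf1 and chaperones, 0 passed in any of the 6 comparisons. An unadjusted p under 0.05 was found for 0 and 2 with Congo Red in wild type and pat1 (12.7% and 5.6% of all genes). Between strains it was found for 5 without drug, 5 with it and 6 over the averaged samples (24.3%, 23.7% and 23.7%), and for 0 in the interaction (2.39%). With Congo Red 18 of the 20 lay below 0 in wild type and 17 in pat1, against 3111 and 2108 of all 5449 genes. The replicate block called 1 of the 20 for Congo Red in pat1, and the random block 1 there and 2 over the averaged samples, where 2.31%, 3.08% and 7.34% of all genes passed. Of 11 targets of Pdr1 and Pdr3, 2 passed and rose with Congo Red in wild type, where 2.68% of all genes passed. They were RTA1 at 1.79 ± 0.42 (adjusted p = 0.0471) and the sphingolipid enzyme IPT1 at 0.70 ± 0.17 (adjusted p = 0.0484). RTA1 lost its call without any 1 of 5 of the 6 wild type arrays, all but treated array 2, and IPT1 without any 1 of the 6. Both were also lost in the fit of only the 2 groups and without the 2 samples with high general stress genes, and both passed with the replicate block. The list had no common direction, with 7 of its 11 genes below 0 and a median of -0.08, and the block called 6 of the 11, where 14.1% of all genes passed. Of those 6, 3 were lower with Congo Red, the transporter gene PDR15 at -0.31 ± 0.24 (0.0278 with the block), the sphingoid base transporter gene RSB1 at -0.36 ± 0.31 (0.0493) and PDR16 at -0.33 ± 0.18 (0.0269), and they are named with their values already seen.

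Of 13 targets of Yap1, 1 passed, OYE3, an NADPH oxidoreductase, which rose in pat1 by 1.06 ± 0.15 without drug (limma adjusted p = 0.00363), 0.55 ± 0.15 with it (adjusted p = 0.0483) and 0.81 ± 0.13 over the averaged samples (adjusted p = 0.0347). In these comparisons 6.44%, 6.44% and 2.42% of all genes passed, so that 1 of 13 lies near the share in the first 2. The call without drug held when any 1 array was left out and was lost in the fit of only the 2 groups (adjusted p = 0.0597), while the other 2 were lost without any 1 of the arrays or samples concerned, with cyclic loess and without the 2 samples with high general stress genes. The call with Congo Red was also lost with centred arrays and with the trend and robust eBayes, and the averaged one without both arrays with URA3 signal. Of 18 general stress genes, 1 passed for Congo Red in wild type, where 2.68% of all genes did. This was NTH1, a trehalase, which rose by 0.79 ± 0.15 (adjusted p = 0.0125), a call lost without untreated wild type array 1 or 3, treated array 3 or both arrays with URA3 signal. In untreated pat1, where 6.44% of all genes passed, 3 of the 18 did, the catalase CTT1 higher by 1.92 ± 0.44 (adjusted p = 0.0317), the glucokinase GLK1 by 0.73 ± 0.18 (adjusted p = 0.0380) and HOR7 by 0.67 ± 0.17 (adjusted p = 0.0477). Each was lost without untreated wild type array 1 or 3, without untreated pat1 array 1 or 3, without both arrays with URA3 signal and in the fit of only the 2 groups, and HOR7 also without untreated pat1 array 2 and with the random block.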

How the data were processed

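The deposited values are log2 signals. RMA, which corrects background, quantile-normalizes arrays and summarises probes into probe sets, is named without a version per the submitters' processing notes. The sources used here name no genome build or annotation, and coordinates are left out. The values were used as deposited. Of 5739 probe sets, 23 array controls and 218 without a gene were left out. For 47 genes with several probe sets the brightest was kept, which left 5449 genes. Symbols came from the platform annotation, with 12 updated through the RefSeq table of assembly R64.

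All 12 arrays were fitted with 4 group means (8 residual degrees of freedom) with lmFit and eBayes of limma 3.58.1 in R 4.3.3. Strains were also compared on the mean of the arrays of each biological sample (4 residual degrees of freedom). P-values were adjusted over all genes tested with the Benjamini-Hochberg method, and an adjusted p under 0.05 passed. Plots were drawn with matplotlib 3.10.9 in Python 3.11.15. The steps were tested on simulated data.

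By the design text, both arrays of a number came from 1 biological sample. Deviations from the group means correlated between arrays of the same number at 0.648, 0.801 and 0.782 in wild type and 0.616, 0.732 and 0.668 in pat1, where 0.1 was the bound for pairing, so the replicate block (4 residual degrees of freedom) was valid for the drug effects.

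Named were RPN4, all members, the 3 highest and 3 lowest members of a comparison, list genes past the threshold (at most 4 a list) and strain markers. The members and lists were chosen with earlier results of these data known. Tried as alternatives were centring, cyclic loess, the trend and robust settings of eBayes, omission of the dimmest 25% of genes, only the groups compared, the mean of all probe sets, fixed and random blocks, and arrays left out. The omission of wild type sample 2 and pat1 sample 3 was chosen after seeing the data.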

Additional observations from a re-analysis of the deposited data

How the results depend on the processing

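Of all values recomputed, 1202 counted as the same, 124 lost a call and 10 marked a gained one. Each gain stands among these 10 both as the value of the gene and as the count of members that passed. A further 26 values of single genes turned sign, and 4 medians moved by more than the spread between replicates. For a single gene the same meant direction and side of the threshold. For a median it meant a move smaller than that spread, whatever its sign. The members' median for Congo Red in pat1, 0.05 in the main fit and -0.01 with centred arrays, thus counted as the same although it turned sign. The count of members that passed was 0 in each alternative, except that 1 passed in these: PRE8 for Congo Red in wild type with the random block (adjusted p = 0.0422), PRE7 in untreated pat1 with centred arrays and with cyclic loess, and PUP3 in pat1 in both drug states with the trend and robust eBayes. The replicate block gave 0 members for the drug effects and their difference and changed no member's call.

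For pat1 against wild type with Congo Red, the median of the members was -0.111 without both arrays with URA3 signal. It ranged from -0.111 to -0.0102 with 1 array left out. The core median of that comparison was -0.0440 once wild type sample 2 and pat1 sample 3 were left out. The members' median difference in response was -0.161 without the URA3 arrays. RPN4 for Congo Red in pat1 was -0.0486 with centred arrays, -0.0453 with cyclic loess, -0.0687 without those 2 samples and -0.0840 to 0.0641 with 1 array left out. RPN4 in untreated pat1 was -0.0281 without the URA3 arrays and -0.0595 to 0.12 with 1 array left out, and over the averaged samples it was -0.117 to 0.0482 with 1 sample left out. Without the URA3 arrays RPN6 for Congo Red in wild type was 0.0329, and in the difference in response RPT6 was -0.17, PUP2 -0.110 and PRE5 -0.126. RPT6 was -0.00102 there with centred arrays. PRE6 for Congo Red in pat1 was 0.0869 without the 2 samples. With 1 array left out, RPN8 ranged from -0.0890 to 0.0283 and RPN6 from -0.0630 to 0.0329 for Congo Red in wild type, and PRE6 from -0.198 to 0.0317 in pat1. In the difference in response RPT6 ranged from -0.0632 to 0.165, PUP2 from -0.0387 to 0.209 and PRE5 from -0.0127 to 0.240. None of these single genes passed, and the cause was not tested in any case.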
